A study of Mus musculus with 7 samples.

Results

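The data compared here are 5 of the 7 arrays of a microRNA (miRNA) study of mouse CD4 T cells. All cells carried the DO11.10 receptor, a transgenic T cell receptor for a peptide of ovalbumin. The 3 sOVA host arrays held donor cells sorted as CD4+, DO11.10+ and CD44 high 5 days after transfer into sOVA mice. The 2 naive arrays held cells sorted as CD4+, DO11.10+, CD25- and CD44 low, taken directly from DO11.10 Rag2+/+ mice that received no transfer. The donors of the transferred cells were DO11 Rag2-/-, so the groups differed in Rag2 genotype of the source and in the CD25 gate as well as in activation, and these cannot be told apart. Per the protocol, recipients were immunized 24 h after transfer with dendritic cells that had been grown from bone marrow, exposed to LPS and given Ova peptide. The titles instead call the sOVA host sOVA immunized, and the labels do not expand sOVA or name the promoter behind it. The remaining 2 arrays, used only for values side by side, held CD44 high cells titled as from an OVA immunized host. They were taken to be the WT Balb/c recipients of the protocol (WT host), since it names no other host. All mice were Balb/c of 6 to 8 weeks, and each sample came from pooled spleens and lymph nodes. Whether replicates were separate pools is not stated, and the p-values cover only the spread seen between these arrays, which could be technical.

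A miRNA is cut from a hairpin transcript into a short RNA that guides repression of messenger RNAs, and it recognises them mainly through its seed, bases 2 to 8. Either side of the hairpin can give a product, named the 5p or the 3p arm. T cells are known to change their miRNAs after antigen contact: miR-155 and miR-21 rise, miR-146a rises later and restrains NF-kappaB signalling, and several miRNAs of resting cells fall. The CD44 high sort marks cells that have met antigen, but CD4, CD25 and CD44 are proteins and were not measured on these arrays. Both arms of miR-142a, a miRNA of blood cells, were well above background on all 5 arrays.

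The mature sequences on which the results turn are given below from RefSeq (build GRCm38.p6), 5′ to 3′, with the seed in capitals. They are ordered so that miRNAs with the same seed stand together.

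miR-155-5p: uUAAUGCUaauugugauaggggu
miR-146a-5p: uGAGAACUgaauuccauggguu
miR-146b-5p: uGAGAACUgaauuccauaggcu
miR-21a-5p: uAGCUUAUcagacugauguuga
miR-183-5p: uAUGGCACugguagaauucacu
miR-96-5p: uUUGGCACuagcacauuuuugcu
miR-182-5p: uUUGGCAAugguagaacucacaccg
miR-130b-3p: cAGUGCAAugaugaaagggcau
miR-301a-3p: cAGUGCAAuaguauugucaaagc
miR-221-3p: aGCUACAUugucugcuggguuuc
miR-222-3p: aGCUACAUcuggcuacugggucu
miR-18a-5p: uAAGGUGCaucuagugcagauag
miR-17-5p: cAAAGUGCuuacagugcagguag
miR-20a-5p: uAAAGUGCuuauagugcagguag
miR-322-5p: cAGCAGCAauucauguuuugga
miR-16-5p: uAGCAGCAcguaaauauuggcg
miR-26a-5p: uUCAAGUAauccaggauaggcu
miR-26b-5p: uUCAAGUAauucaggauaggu
miR-181a-5p: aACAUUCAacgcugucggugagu
miR-181c-5p: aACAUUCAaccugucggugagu

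Values are log2 signals relative to the 75th percentile of the array, so 0 is that percentile and each unit is a doubling. They can be compared between arrays for 1 probe but not between probes. The arrays detected 309 to 467 of their 1874 probes, and 342 features, each 1 target or a set of nested targets, were tested. Of these, 166 matched a RefSeq mature miRNA by sequence. The dimmest arrays were sOVA host replicate 3 and WT host replicate 2.

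The array labelled sOVA host replicate 3 stood apart from the other arrays of its group. Over the 342 features its log2 values correlated at r = 0.909 and 0.878 with sOVA host replicates 1 and 2, which correlated with each other at 0.973. Its correlation with WT host replicate 2 was 0.969, as high as that between the WT host arrays (0.969). There were 36 features for which sOVA host replicates 1 and 2 both lay more than 1 log2 unit to the same side of both WT host arrays, and for 33 of them replicate 3 was closer to the WT host mean. Replicate 3 and WT host replicate 2 also shared a low signal and the same row of the slide, and the part of these in the likeness was not tested. The results below are therefore given with and without replicate 3.

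**Figure D1:**
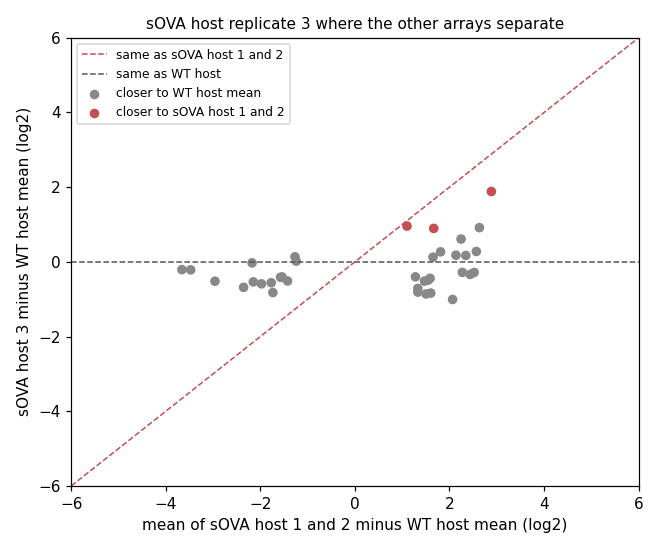
Position of the array labelled sOVA host replicate 3 for the 36 features that separated sOVA host replicates 1 and 2 from the WT host arrays by more than 1 log2 unit. The x axis is the mean of sOVA host replicates 1 and 2 minus the WT host mean and the y axis is replicate 3 minus the WT host mean, both in log2 units; 33 points lie closer to the horizontal line (same as WT host) than to the diagonal (same as the other sOVA host arrays).

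Against naive cells, 72 of 342 features (21.1%) were called in sOVA host cells at an adjusted p under 0.05 (limma with Benjamini-Hochberg adjustment over all features tested). Of these, 53 (15.5%) were higher and 19 (5.56%) lower in sOVA host cells, and 147 features (43%) had an unadjusted p under 0.05. Among the 72, 39 matched a mature miRNA by sequence and 22 shared only a seed with one. Many probes target near-identical sequences, and the 72 held 49 distinct seeds. Leaving out replicate 3 raised the count to 126 (36.8%), with 85 (24.9%) higher and 41 (12%) lower, and 71 of the 72 were among them. In that fit 171 features (50%) had an unadjusted p under 0.05. Leaving out a naive array lowered the count: 12 features were called without naive replicate 1 and 13 without naive replicate 2. Those fits hold 1 naive array, which is assumed to vary like the other groups, and their changes can stay as large while the call is lost (4.16 and 3.94 for miR-155-5p, against 4.05). Without sOVA host replicate 1 or 2 there were 44 and 45. A total of 11 features were called in each of the 7 fits that left out 1 array, and those matched by name were miR-182-5p, miR-96-5p, miR-183-5p, miR-21a-5p, miR-21a-3p, miR-301a-3p and miR-322-5p. Called features were not the only ones whose naive and sOVA host arrays failed to overlap, as 211 of 342 (61.7%) did so.

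The split between rises and falls depended on how arrays were scaled. The median change over all features was 0.11, and when the 75th percentile was taken over all probes, every change was 0.82 lower. That scaling called 24 features higher and 44 lower, and quantile normalization called 34 higher and 28 lower. Each group had arrays in both rows of the slide. With slide row as a block, 125 features were called, 78 higher and 47 lower. Within rows 1 and 2 the change was 4.80 and 2.46 for miR-155-5p, 2.86 and 2.65 for miR-21a-5p, 4.53 and 5.17 for miR-96-5p and -4.23 and -3.73 for miR-322-5p, and replicate 3 is the sOVA host array of row 2.

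**Figure D2:**
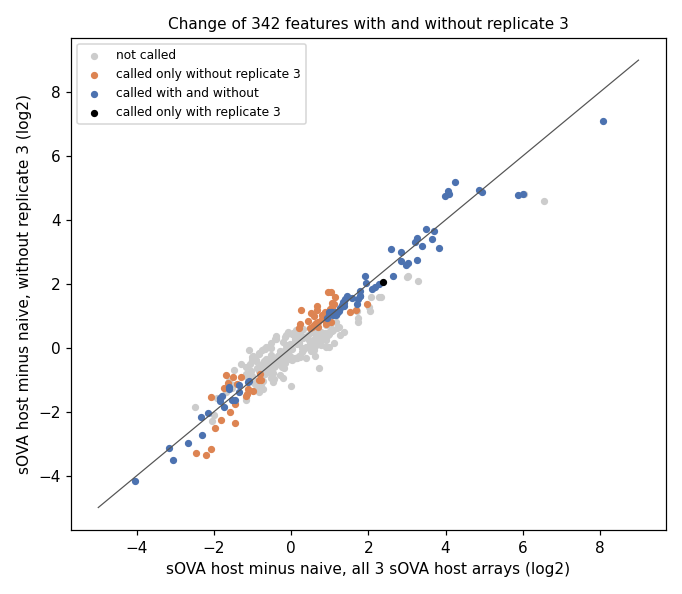
Log2 change from naive to sOVA host cells for each of 342 features, with all 3 sOVA host arrays (x axis) and without replicate 3 (y axis), coloured by whether the feature was called; the line marks equal values. Of the 72 features called with all arrays, 71 were also called without replicate 3.

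miR-155, miR-146a and miR-146b were higher in every sOVA host array than in the naive arrays. miR-155-5p, which promotes effector T cell responses, lay at -3.19 and -3.41 on the naive arrays and at 1.39, 1.81 and -0.95 on sOVA host replicates 1, 2 and 3. Replicates 1 and 2 were close to each other, and replicate 3 lay between them and the naive arrays. The change was 4.05 ± 0.81 (SE, adjusted p = 0.0221, limma), or 16.6-fold, and 4.90 without replicate 3 (adjusted p = 0.000411, limma). miR-146a-5p, an inhibitor of TRAF6 and IRAK1 signalling, was at -2.54 and -3.49 in naive cells and at 1.70, 1.89 and -0.38 in sOVA host cells. It changed by 4.08 ± 0.75 (SE, adjusted p = 0.0175, limma), and by 4.80 without replicate 3 (adjusted p = 0.00192, limma). miR-146b-5p, which has the same seed and comes from another chromosome, rose by 2.58 ± 0.56 (SE, adjusted p = 0.0238, limma), and by 3.09 without replicate 3. The order of the arrays was alike for all 3 miRNAs, with replicate 3 the lowest of the sOVA host arrays. Over the fits that left out 1 array, miR-155-5p ranged from 3.52 to 4.90 and miR-146a-5p from 3.60 to 4.80. None of the 3 was called without naive replicate 1 (adjusted p 0.0807 to 0.125, limma) or without naive replicate 2 (0.137 to 0.177, limma). miR-155-5p and miR-146b-5p also lost their call without sOVA host replicate 1, and miR-146b-5p without replicate 2. Mir155 lies at chr16:84714140-84714204 within its host noncoding gene Mir155hg. A probe whose target differs from miR-155-5p by T12C, counted from the 5′ end, changed by 4.24, so signal may be shared between near-identical targets.

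miR-21a, which is carried in the gene Vmp1 at chr11:86584067-86584158 and is known to rise in activated lymphocytes, rose on both arms. miR-21a-5p was at 1.01 and 0.72 on the naive arrays and at 3.86, 3.87 and 3.36 on the sOVA host arrays. The groups were far apart and the sOVA host arrays, replicate 3 included, were close together. The 5p arm rose by 2.84 ± 0.28 (SE, adjusted p = 0.00233, limma), or 7.14-fold. The 3p arm, usually the less abundant product, rose by 3.21 ± 0.32 (SE, adjusted p = 0.00233, limma). It stood well above background on 1 of 2 naive and 2 of 3 sOVA host arrays. The arms changed by 3.00 and 3.31 without replicate 3. When the 75th percentile was taken over all probes, miR-21a-5p had a change of 2.02 without a call (adjusted p = 0.0527, limma).

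The miRNAs of the miR-183 cluster, made from hairpins at chr6:30165918-30169737 on the minus strand within the noncoding gene Mirc35hg, rose together. miR-182 is known for lowering FOXO1 in helper T cells that have received IL-2. miR-96-5p was at -9.21 and -10.04 in naive cells and at -4.45, -4.92 and -4.88 in sOVA host cells. Neither miR-96-5p, miR-182-5p nor miR-183-5p stood well above background on either naive array. miR-182-5p was at the lowest value that each naive array gave (-9.29 and -10.59) and at -5.18, -4.98 and -4.83 on the sOVA host arrays. The sOVA host arrays were close together for both miRNAs, and replicate 3 did not stand out. Because naive cells gave only a bound, the differences were at least 7.29-fold for miR-96-5p (adjusted p = 0.00134, limma) and at least 6.15-fold for miR-182-5p (adjusted p = 0.00233, limma). A bound of this kind sets the mean of the bright arrays against the higher of the dim probe's own signal and the lowest signal well above background on each dim array. miR-183-5p was at least 2.50-fold higher (adjusted p = 0.0059, limma) but was well above background on 1 of 3 sOVA host arrays. The fitted changes of 4.88, 4.95 and 3.65 became 4.94, 4.86 and 3.41 without replicate 3. Across the fits that left out 1 array they ran from 3.00 to 5.59. All 3 miRNAs entered the test only because sOVA host or WT host arrays detected them, so their calls are a description. For miR-183-5p these were the WT host arrays.

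miR-130b and miR-301a, which share a seed although their genes lie on different chromosomes, were higher in sOVA host cells. miR-301a-3p, from within Ska2, was at -5.31 on both naive arrays and at -2.19, -2.97 and -2.25 on the sOVA host arrays. It rose by 2.84 ± 0.32 (SE, adjusted p = 0.00381, limma), or 7.15-fold, and by 2.73 without replicate 3. miR-130b-3p went from -4.55 and -4.20 to -2.90, -2.78 and -2.28, a rise of 1.73 ± 0.29 (SE, adjusted p = 0.0143, limma) that was 1.54 without replicate 3. For both miRNAs all sOVA host arrays lay above the naive ones, and replicate 3 was not the lowest. miR-130b-5p, the other arm, was not well above background in naive cells and was at least 4.05-fold higher (adjusted p = 0.00905, limma). This arm was well above background on 2 of 3 sOVA host arrays and entered the test only through the WT host arrays, so its call is a description. miR-130a-3p had a change of 1.96 without passing (adjusted p = 0.0731, limma), and of 1.36 with a call without replicate 3 (adjusted p = 0.0463, limma). The remaining 5 tested targets with this seed, which matched no mature miRNA by name, were all called higher, beside 15.5% of all features. UC1005050 and UC1005051, detected in both groups, rose by 1.77 and 1.78. UC1005417, UC1005421 and UC1005422 were not well above background in naive cells and were at least 6.78-fold, 2.08-fold and 8.18-fold higher. They entered the test only because sOVA host or WT host arrays detected them, so the count of 5 is a description. UC1005050, UC1005051 and UC1005417 lost their calls without 1 or the other naive array. Both arms of miR-130b lost their calls without naive replicate 1 (adjusted p = 0.122 and 0.0733 for 3p and 5p, limma) and without naive replicate 2 (adjusted p = 0.0951 and 0.0901, limma). miR-301a-3p was called in both of these fits.

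Smaller rises were seen for miR-221 and miR-222, neighbours on the X chromosome with a common seed and known as repressors of the cell cycle inhibitor p27. miR-222-3p was at -5.88 and -5.67 in naive cells and at -4.01, -3.51 and -4.002 in sOVA host cells, a change of 1.93 ± 0.27 (SE, adjusted p = 0.00856, limma). miR-221-3p changed by 1.58 ± 0.26 (SE, adjusted p = 0.0143, limma), with sOVA host arrays at -3.00, -2.48 and -2.67. miR-132-3p, which in nerve cells follows CREB activity, rose by 1.71 (adjusted p = 0.0356, limma). miR-222-3p, miR-221-3p and miR-132-3p were still called without replicate 3, at 2.01, 1.55 and 1.38. miR-212-3p, from the same locus as miR-132, changed by 1.53 without a call (adjusted p = 0.0688, limma), and was called at 1.12 without replicate 3 (adjusted p = 0.0439, limma). It was well above background on 1 of 2 naive and 1 of 3 sOVA host arrays. As it entered the test only through the WT host arrays, that call is a description. In these pairs the arrays of the groups did not overlap, as was so for 61.7% of all features. miR-221, miR-222 and miR-132 all lost their calls without 1 or the other naive array (adjusted p 0.0888 to 0.224 and 0.0888 to 0.163, limma), and miR-132-3p also without sOVA host replicate 1 or either WT host array.

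**Figure D3:**
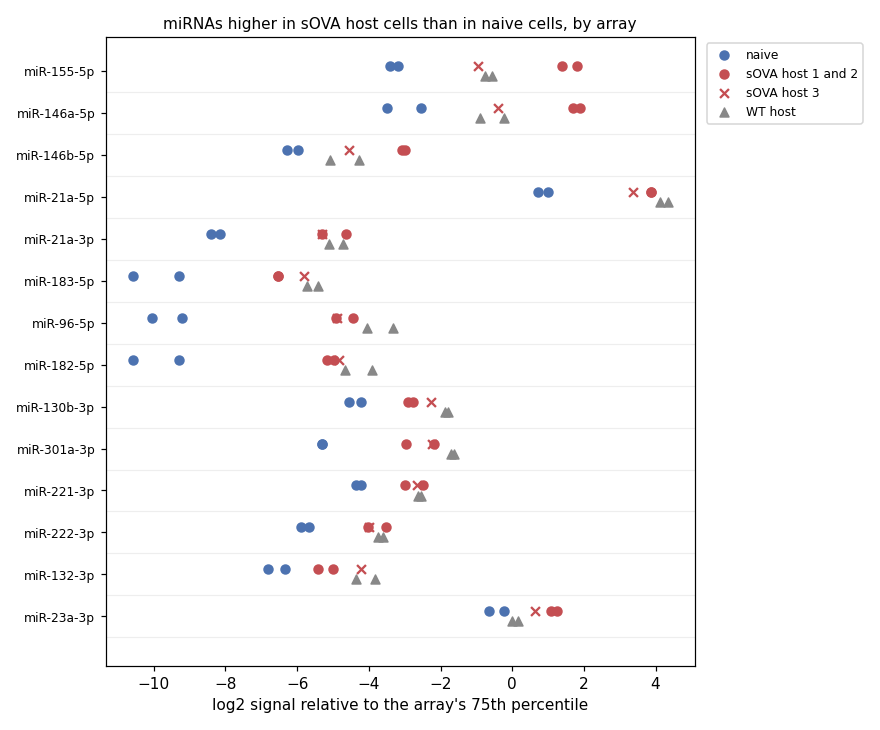
Log2 signal relative to the 75th percentile of each array for 14 miRNAs that were called higher in sOVA host cells, with 1 mark per array: naive cells, sOVA host replicates 1 and 2, sOVA host replicate 3 (cross) and WT host cells. For miR-155-5p, miR-146a-5p and miR-146b-5p the cross lies nearer the WT host marks than the other sOVA host marks, while for miR-21a-3p, miR-96-5p, miR-222-3p and miR-301a-3p it coincides with another sOVA host mark or lies beside it.

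Within the cluster of miR-17 to miR-92a, a transcript that supports lymphocyte growth and survival, miR-18a was called higher and the main arms of the other members were not called. The cluster holds 6 hairpins at chr14:115043671-115044506. miR-18a-5p was at -3.22 and -3.07 in naive cells and at -1.65, -2.18 and -1.82 in sOVA host cells, a rise of 1.26 ± 0.28 (SE, adjusted p = 0.0269, limma). Its 3p arm rose by 2.28 ± 0.38 (SE, adjusted p = 0.0143, limma), although it was well above background on 1 of 2 naive and 1 of 3 sOVA host arrays. The 3p arm entered the test only through the WT host arrays, so its call is a description. miR-17-5p, from the hairpin before that of miR-18a, was at -0.29 and -0.18 in naive cells and at -0.24, -0.31 and -0.17 in sOVA host cells. Those values overlapped, and the change of 0.00 ± 0.25 (SE) was not called. miR-19a-3p, miR-20a-5p, miR-19b-3p and miR-92a-3p had changes of -0.24, -0.72, -0.74 and -0.37, none of them called (adjusted p 0.0852 to 0.54, limma). For miR-19b-3p and miR-92a-3p, further hairpins lie on the X chromosome (Mir19b-2 and Mir92-2). Their signals cannot be assigned to this cluster alone. miR-19b-1-5p, the minor arm of a hairpin of the cluster, was at -6.06 and -6.08 in naive cells and was called lower (adjusted p = 0.023, limma), but its sOVA host arrays, at -7.05, -7.20 and -7.30, were not well above background and allow no fold. In the fit that left out replicate 3 the changes of miR-18a were 1.23 and 1.98, and those of miR-17-5p, miR-19a-3p, miR-20a-5p, miR-19b-3p and miR-92a-3p ran from -0.66 to -0.03. The difference between members was not tested. miR-18b-5p and miR-363-3p, from a related cluster on the X chromosome, rose by 1.38 and 1.15 (adjusted p = 0.0332 and 0.023, limma), and by 1.40 and 1.12 without replicate 3. Counting the family of clusters as a whole, 5 of 22 tested members were called higher and 1 lower, beside 15.5% and 5.56% of all features, and the median change was -0.02 beside 0.11. The count of 5 includes the 3p arm of miR-18a, so it is a description. Without 1 or the other naive array none of the 22 was called. Both arms of miR-18a, miR-19b-1-5p, miR-18b-5p and miR-363-3p lost their calls when either naive array was left out (adjusted p 0.099 to 0.222, limma). miR-18a-5p, miR-19b-1-5p, miR-18b-5p and miR-363-3p also lost theirs without sOVA host replicate 1 (0.0519 to 0.0754), miR-19b-1-5p and miR-363-3p without replicate 2, and miR-18b-5p without 1 or the other WT host array. miR-18a-5p was not called after scaling to the median of detected probes (1.17, adjusted p = 0.0589, limma) or quantile normalization (1.03, adjusted p = 0.0517, limma).

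**Figure D4:**
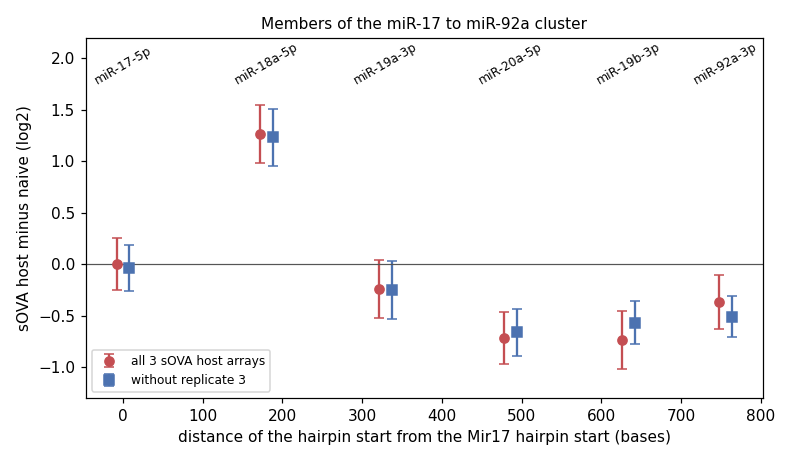
Log2 change from naive to sOVA host cells (mean ± SE from limma) for the main arm of each hairpin of the miR-17 to miR-92a cluster, placed by the distance of its hairpin start from that of Mir17 in bases. miR-19b-3p and miR-92a-3p also have hairpins on the X chromosome. Circles use all 3 sOVA host arrays and squares leave out replicate 3; miR-18a-5p lies at 1.26 and the other members lie between -0.74 and 0.00 with all arrays.

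The miR-23a cluster, whose hairpins for miR-23a, miR-27a and miR-24 lie together on chromosome 8, gave a call for 1 main arm. A second miR-24 hairpin, Mir24-1, lies on chromosome 13, so the signal of miR-24-3p cannot be assigned to this cluster alone. miR-23a-3p was at -0.24 and -0.65 in naive cells and at 1.09, 1.26 and 0.63 in sOVA host cells, a rise of 1.44 ± 0.30 (SE, adjusted p = 0.0221, limma). miR-24-3p and miR-27a-3p had changes of 1.12 and 0.52 that did not pass (adjusted p = 0.0593 and 0.515, limma). Without replicate 3 all 3 were called, at 1.62, 1.35 and 1.09, beside 24.9% of all features called higher. miR-27a-3p was at 0.43 and 0.01 on sOVA host replicates 1 and 2 but at -1.48 on replicate 3, below both naive arrays. miR-23a-3p was called in 3 of 7 fits that left out 1 array, losing its call without 1 or the other naive array or without sOVA host replicate 1 or 2 (adjusted p 0.0599 to 0.186, limma).

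Further rises were close to 1 log2 unit or came from dim probes. miR-103-3p and miR-107-3p, which are carried in Pank genes and differ little in sequence, rose by 1.11 and 1.09. miR-484 rose by 1.17, miR-22-3p by 0.99 and miR-22-5p by 1.35, with adjusted p between 0.0221 and 0.0333 (limma) for these 5 miRNAs. All 5 were called without replicate 3, at 1.02 to 1.43. The sOVA host arrays of miR-103-3p spanned only -0.08 to 0.14 against -1.09 and -1.13 in naive cells. None of these 5 was called when arrays were scaled to the median of detected probes or to a percentile of all probes, or when sOVA host replicate 1 or 2 was left out (adjusted p 0.0554 to 0.09, limma, for the latter). miR-204-3p, a brain and eye miRNA carried in Trpm3, had sOVA host values of -5.46, -4.79 and -3.64 and a change of 3.25 (adjusted p = 0.0319, limma), which was 2.75 without replicate 3. miR-296-5p and miR-296-3p rose by 2.16 and 2.39. The 5p arm was called at 1.90 without replicate 3, and the 3p arm was the 1 feature called with all arrays that was not called without replicate 3 (2.05, adjusted p = 0.05004, limma, just above the threshold). For these dim probes replicate 3 was the highest of the sOVA host arrays. Leaving out naive replicate 1 or 2 ended the calls of all 8 miRNAs of this paragraph, with changes of 0.99 to 2.41 and 0.99 to 4.09. miR-296-3p also lost its call without sOVA host replicate 1 or 2, and miR-204-3p without replicate 2.

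The largest fitted fall among named miRNAs was that of miR-322-5p, the mouse counterpart of miR-424 and a repressor of cell cycle genes. It was at -2.66 and -2.75 in naive cells and at -6.79, -6.98 and -6.47 in sOVA host cells, where 1 of 3 arrays was well above background. All sOVA host arrays, replicate 3 included, lay close together and far below the naive ones. It fell by 4.04 ± 0.27 on the log2 scale (SE, adjusted p = 0.000943, limma), a fitted value taken in part from sOVA host signals near background. Over the 7 fits that left out 1 array the change ran from -4.18, without replicate 3, to -3.93. With normexp background correction it was -3.01 (adjusted p = 0.013, limma). miR-322-5p passed the filter only through the naive arrays, so its call is a description. Mir322 lies at chrX:53054255-53054349 in a group of hairpins that also holds Mir503 and Mir450. miR-450a-5p was at -5.79 and -6.23 in naive cells and was not well above background on any sOVA host array (adjusted p = 0.0416, limma). It was called in 1 of 7 fits that left out 1 array, the one without replicate 3 (adjusted p = 0.0159, limma). miR-503-5p was at -6.42 and -6.33 in naive cells and at -8.12, -9.34 and -5.996 in sOVA host cells, not well above background there, with no call (adjusted p = 0.299, limma) except without replicate 3 (adjusted p = 0.0288, limma). A target that differs from miR-322-5p by G21A, and is not matched to a mature miRNA, was at least 1.77-fold lower (adjusted p = 0.0221, limma) and lost its call without 1 or the other naive array (0.139 and 0.131) or without sOVA host replicate 1 (0.0513).

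miR-16-5p has the seed of miR-322-5p but did not follow it. It was at 2.62 and 2.54 in naive cells and at 3.02, 3.07 and 1.82 in sOVA host cells, a change of 0.06 ± 0.43 (SE, adjusted p = 0.917, limma). The sOVA host arrays lay on both sides of the naive ones, with replicate 3 the lowest. Without replicate 3 the change was 0.47 (adjusted p = 0.102, limma). Among 7 tested members of the miR-15 and miR-16 family, which hold back cell division, miR-322-5p was the 1 called lower and none was called higher. Over all features 5.56% were called lower and 15.5% higher. Without replicate 3, 4 of the 7 were called higher, beside 24.9% of all features.

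miR-26b-5p and miR-26a-5p, which repress EZH2 and have the same seed, differed in how firmly they were lower. miR-26b-5p, carried in Ctdsp1, was at 0.77 and 0.49 in naive cells and at -1.40, -1.44 and -1.70 in sOVA host cells. The sOVA host arrays were tightly grouped. The miRNA fell by 2.15 ± 0.27 on the log2 scale (SE, adjusted p = 0.00588, limma), or 4.42-fold, and by 2.05 without replicate 3. It was called in 6 of 7 fits that left out 1 array, the exception being without naive replicate 1 (adjusted p = 0.0733, limma). miR-26a-5p and miR-26b-5p differ by C11T and C21T, counted from the 5′ end with the miR-26a base first. miR-26a-5p was at 1.63 and 1.49 in naive cells and at 0.79, 0.92 and -1.48 in sOVA host cells. Its change of -1.49 ± 0.77 (SE) was not called (adjusted p = 0.195, limma), and without replicate 3 it was -0.71 (adjusted p = 0.138, limma).

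The miR-181 family tunes T cell receptor sensitivity and is high in thymocytes. With all arrays 1 of its 5 tested members was called, beside 21.1% of all features. miR-181c-5p was at -3.16 and -3.00 in naive cells and at -4.23, -4.40 and -5.45 in sOVA host cells, and fell by 1.62 ± 0.41 on the log2 scale (SE, adjusted p = 0.0362, limma). Its call held in 1 of 7 fits that left out 1 array, the one without replicate 3 (adjusted p = 0.00973, limma). miR-181a-5p was at 0.75 and 0.62 in naive cells and at -0.47, -0.36 and -2.05 in sOVA host cells, a change of -1.64 without a call (adjusted p = 0.0749, limma) and of -1.1 with a call without replicate 3 (adjusted p = 0.0259, limma). miR-181b-5p and miR-181d-5p had changes of 0.67 and 0.87 (adjusted p = 0.396 and 0.106, limma). Without replicate 3 both were called higher, by 1.19 and 1.098 (adjusted p = 0.0388 and 0.0259, limma). When the percentile was taken over all probes, the change of miR-181b-5p was -0.15.

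Other falls involved miR-340-5p, miR-350-3p and miR-362-3p, carried in Rnf130, Cep170 and Clcn5. miR-340-5p was at -4.89 and -4.77 in naive cells and not well above background on any sOVA host array, at least 2.28-fold lower (adjusted p = 0.00905, limma). miR-350-3p went from -2.59 and -2.68 to -4.20, -4.21 and -5.01, and fell by 1.83 on the log2 scale (adjusted p = 0.0165, limma). miR-362-3p fell by 1.84 (adjusted p = 0.027, limma). The fitted changes of the 3 miRNAs were -2.17, -1.57 and -1.66 without replicate 3, all called. All 3 lost their calls without naive replicate 1 (adjusted p 0.0733 to 0.147, limma) and without naive replicate 2 (0.0929 to 0.186, limma), and miR-362-3p also without sOVA host replicate 1 or 2. miR-340-5p was not called with normexp background correction (-1.29, adjusted p = 0.0698, limma). UC1004876 and UC1004884, probes whose targets share the seed of miR-30 without matching a member by name, fell by 1.61 and 1.78 (adjusted p = 0.0367 and 0.0221, limma), and by 1.28 and 1.52 without replicate 3. Both lost their calls without 1 or the other naive array, and UC1004876 also without 1 or the other WT host array or sOVA host replicate 1 or 2.

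**Figure D5:**
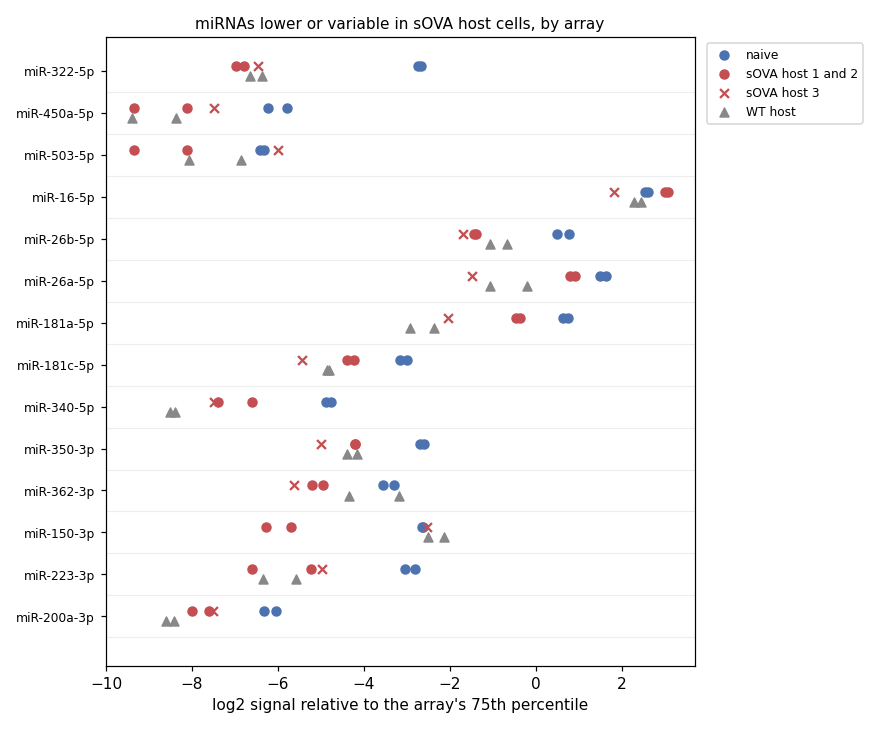
Log2 signal relative to the 75th percentile of each array for 14 miRNAs, with 1 mark per array as for the miRNAs that rose. miR-322-5p lies at -2.66 and -2.75 in naive cells and at -6.36 or below in all sOVA host and WT host arrays, whereas for miR-150-3p sOVA host replicates 1 and 2 lie at -6.27 and -5.69 and replicate 3 lies with the naive and WT host arrays at -2.53.

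Several miRNAs known to be high in resting T cells had negative changes that did not pass with all arrays. miR-150-3p, an arm of a miRNA that targets MYB and is known to fall on T cell activation, was at -2.62 and -2.65 in naive cells and at -6.27, -5.69 and -2.53 in sOVA host cells. Replicates 1 and 2 were far below the naive arrays and replicate 3 was level with them. The change was -2.20 ± 1.07 (SE, adjusted p = 0.174, limma), against -3.35 without replicate 3 (adjusted p = 0.00192, limma). The list of miRNAs high in naive cells had 1 of 10 tested members called lower, miR-26b-5p, beside 5.56% of all features, and none higher. The median change was -1.32 beside 0.11 over all features, and 3 of the 10 had positive changes, among them miR-342-5p (0.31) and miR-342-3p (0.16). Without replicate 3, 5 of the 10 were called lower, beside 12% of all features, and without naive replicate 1 none was. The let-7 family, which restrains proliferation, had 9 tested members and no call, beside 21.1% of all features called. Its median was -0.65, with changes from -1.93 for let-7b-5p to 0.82. let-7b-5p (adjusted p = 0.0531, limma) and let-7c-5p (-1.41, adjusted p = 0.0541, limma) were nearest to the threshold. miR-29a-3p and miR-29b-3p, repressors of T-bet and interferon gamma, had changes of -1.75 and -2.48 (adjusted p = 0.0688 for each, limma), and miR-29a-3p was called without replicate 3 (-1.25, adjusted p = 0.0406, limma). miR-30e-5p was not called at -1.55 (adjusted p = 0.0707, limma). None of 5 tested miR-30 members matched by name was called, beside 21.1% of all features. Both arms of miR-142a had negative changes, -1.53 and -1.68, without passing (adjusted p = 0.0611 and 0.0871, limma).

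The list of miRNAs known to rise on T cell activation had 20 members on the array and 15 tested, of which 13 were called higher and none lower, beside 15.5% of all features called higher. Of the 15, 6 were not well above background on both naive arrays and passed the filter through an activated group, so the count is a description. It was 14 without replicate 3, 9 without sOVA host replicate 1, 6 when the 75th percentile was taken over all probes, and 5 without 1 or the other naive array (miR-182-5p, miR-96-5p, miR-183-5p and both arms of miR-21a). The 2 not called were miR-212-3p and miR-214-3p. A further 7 targets that share only a seed with this list were all called higher, beside 15.5% of all features. Among them UC1005264 and UC1004793 passed the filter only through WT host cells, so the count of 7 is also a description. A list of miRNAs linked to regulatory T cells had 21 members on the array. Of 8 tested members 6 were called higher, beside 15.5% of all features. All 6 stand in the activation list too (miR-155-5p, miR-146a-5p, miR-146b-5p, miR-182-5p and both arms of miR-21a). Of the 8, miR-182-5p and miR-21a-3p were not well above background on both naive arrays and passed the filter through an activated group. This count is therefore a description too. Without 1 or the other naive array, miR-182-5p and both arms of miR-21a were the 3 still called.

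Among the tested markers of other cell types, miR-223-3p and miR-200a-3p were called and the others were not. miR-223-3p, a miRNA of neutrophils and other myeloid cells, was at -3.04 and -2.80 in naive cells and at -6.60, -5.22 and -4.99 in sOVA host cells, and was called lower (adjusted p = 0.0221, limma). It was not well above background on sOVA host replicate 1, the lowest array, and was called without that array too (adjusted p = 0.0239, limma). Its fitted change was -2.68, or -2.99 without replicate 3. On the linear scale, relative to the 75th percentile, it was 0.121 and 0.143 in naive cells and 0.0103 to 0.0316 in sOVA host cells. miR-451a, which marks red blood cells, was at -0.97 and -1.84 in naive cells and at -1.09, -4.12 and 0.94 in sOVA host cells. Replicate 3 was the highest of all arrays for it, and the change of -0.02 ± 1.41 (SE) was not called (adjusted p = 0.993, limma). Of 5 tested epithelial markers 1, miR-200a-3p, was called lower (adjusted p = 0.0165, limma), beside 5.56% of all features. It was at -6.04 and -6.32 in naive cells and not well above background on any sOVA host array, which allows no fold. The summed level of the 5 was 0.0856 to 0.086 in naive cells and 0.0355 to 0.0678 in sOVA host cells. None of the 5 was well above background on sOVA host replicate 3 or WT host replicate 2. These markers and miR-223-3p thus passed the filter only through the naive arrays. Their lower calls and sums are a description. miR-214-3p, a stromal miRNA, was at -5.47, -7.08 and -3.43 in sOVA host cells and again highest on replicate 3. No matched marker of muscle or neural tissue passed the filter. In sorted bulk samples fewer cells of a type and less RNA per cell cannot be told apart, and the part of other cells in the results above was not tested. Both miR-223-3p and miR-200a-3p lost their calls when either naive array was left out (adjusted p 0.115 to 0.156, limma).

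The largest fitted changes among called features belonged to 3 probes whose targets matched no mature mouse entry. Their targets, read from the probes and written as DNA with bases 2 to 8 in capitals, are shown because they lead the rises by fitted change, which for each rests on naive signals that were not well above background on 1 or both arrays.

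UC1006364: aATGGATTtttggagcagg
UC1006410: tGGATTTTtggatcaggga
UC1006147: tGGAGGAGaaggaaggtgatg

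UC1006364 and UC1006410 share a run of 12 bases, TGGATTTTTGGA, and UC1006147 shares at most 5 in a row with either. UC1006364 was at -9.05 and -7.18 in naive cells and at -0.21, -1.85 and 1.99 in sOVA host cells, a fitted change of 8.09 ± 1.20 (SE, adjusted p = 0.00905, limma). Naive replicate 1 was near the lowest value of its array (-9.29), and 1 of 2 naive arrays was well above background. UC1006410 was not well above background in naive cells and was at least 12.8-fold higher (adjusted p = 0.0244, limma). UC1006147, well above background on 1 of 2 naive arrays, had a fitted change of 5.87 (adjusted p = 0.0296, limma). These 3 probes entered the test only because sOVA host or WT host arrays detected them, so their calls are a description. All 3 were highest on replicate 3, the dimmest array, at 1.99, -1.54 and 1.57. The fitted changes without replicate 3 were 7.09, 4.80 and 4.79, all called. All 3 lost their calls without naive replicate 1 (adjusted p 0.0733 to 0.186, limma), and UC1006410 and UC1006147 also without naive replicate 2 or sOVA host replicate 1. UC1005017, also unmatched, varied most: it was at -1.64, -9.05 and 0.50 on the sOVA host arrays and at the lowest value of each naive array, with no call (adjusted p = 0.124, limma) except without sOVA host replicate 2 (0.0143). Among falls, UC1006366 and UC1006152 changed by -3.16 and -1.74 (adjusted p = 0.0296 and 0.0221, limma), or -3.15 and -1.85 without replicate 3, and the naive replicates of UC1006366 lay apart at -3.84 and -1.58. Without naive replicate 1 these changes were -4.29 and -2.14, with UC1006366 called and UC1006152 not, and without naive replicate 2 they were -2.03 and -1.33, with neither called. Both lost their calls without sOVA host replicate 1 or 2 (adjusted p 0.0513 to 0.0783, limma).

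The WT host comparison uses the same naive arrays, so the values are set side by side only. WT host cells had changes from naive of 3.37 for miR-21a-5p, 3.64 for miR-301a-3p and -3.80 for miR-322-5p, where sOVA host cells had 2.84, 2.84 and -4.04. For miR-322-5p, 1 WT host array of 2 had signal well above background. For miR-155-5p and miR-146a-5p the WT host changes were 2.63 and 2.46, where sOVA host cells had 4.05 and 4.08. Set directly against each other, sOVA host and WT host cells had 0 of 342 features called (limma; 0%), with 41 (12%) at an unadjusted p under 0.05. The counts without replicate 3 were 65 (19%) and 119 (34.8%). In that fit miR-155-5p was 2.27 higher (adjusted p = 0.00909, limma), miR-146a-5p 2.34 higher (adjusted p = 0.0245, limma) and miR-181a-5p 2.24 higher (adjusted p = 0.00962, limma) in sOVA host cells. miR-150-3p was lower there by 3.66 log2 units, with sOVA host minus WT host at -3.66 (adjusted p = 0.00543, limma). miR-21a-5p and the miR-183 cluster were not called between hosts in it (adjusted p 0.152 to 0.313, limma).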

How the data were processed

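Cy3-labelled total RNA (250 ng, per the design text) was hybridised to custom 1-colour Agilent arrays. Per the file headers, Feature Extraction subtracted background from the linear intensity of each deposited spot and corrected spatial trends (version 9.5.1.1; the submitters' processing notes name 10.6). The authors' deposited value table holds log2 values and was used for counts only; how it was made is not given in the sources used here.

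Control and outlier spots were left out, spots were averaged as log2 per probe, and arrays were set to a common 75th percentile, computed from the 253 probes that all 7 arrays detected (50% of spots well above background). Targets were read as the reverse complement of each probe without its added G and 10 T. Nested targets were merged, which left 1753 features, of which 524 matched a RefSeq mature miRNA (GRCm38.p6) by sequence. A feature entered the test, as 342 did, when all arrays of 1 or more groups detected it. A feature could pass through any 1 group, so calls describe these and not all miRNAs. Where a feature passed only through a group in which it was brighter, its call is a description. limma (version 3.58.1, R 4.3.3) was fitted to all 7 arrays with group means, tested on simulated data, and p-values were adjusted by Benjamini-Hochberg. The number of arrays limits the precision.

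Features named were, at most, the 15 largest rises and the 15 largest falls, by fitted change, of called features whose naive and sOVA host arrays did not overlap, with up to 4 of the brightest members per list, the 8 brightest of each group and tested cell type markers. The text prints a part of these; the near-identical targets, UC1005017 and the X-cluster members outside this rule were chosen after their values were seen. Members and lists were chosen with earlier results of these data known. The arrays shared 1 slide and 1 scan time and filled 2 rows. Whether replicate numbers pair the samples could not be decided. Naive and sOVA host replicate 1 had deviations that correlated at 0.32, and those of replicate 2 correlated at -0.18. With 2 naive arrays the deviations of 1 mirror those of the other. The replicate 1 arrays also shared a slide row, and those of replicate 2 did not. Alternatives were scaling, background, detection filter, merging of probes, arrays used, blocks, array weights, the deposited table and leaving out arrays.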

Additional observations from a re-analysis of the deposited data

How the results depend on the processing

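Leaving out a naive array leaves 1, which is assumed to vary like the other groups. Over the fits that left out 1 array, counts ran from 12 to 126 features called (10 to 85 higher, 2 to 41 lower), and between hosts from 0 to 65. Without both dim arrays 151 were called (91 higher, 60 lower; 47 between hosts). Array weights gave 181 (102 higher, 79 lower; 47 between hosts), slide row as a block 125 (47 lower), and the table of deposited values called 212 of 1775 (118 higher, 94 lower; 126 between hosts). No detection filter left 25 of 1753 called (24 higher, 1 lower), and features detected on all 7 arrays 34 of 214 (28 higher, 6 lower). A 75th percentile taken over all probes called 24 higher and 44 lower, scaling to the median of detected probes 35 higher, quantile normalization 34 higher, and normexp 11 lower. The causes were not tested.

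It could not be decided whether replicate numbers pair the samples. The replicate block called 104 features (35 lower) and 27 between hosts; since replicate 3 has no partner, its changes equal those without that array.

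Of 49 named features called with all arrays, 29 were called after scaling to all probes, 35 after scaling to the median, 36 after quantile normalization, 38 with normexp, 15 with no filter and 49 with slide row as a block. Signs turned for features near 0. miR-17-5p was -0.82 with all probes, -0.094 with the median, -0.052 with quantile normalization, -0.035 with the replicate block or without both dim arrays, -0.030 with array weights, and -0.054 to 0.054 over the fits that left out 1 array. miR-16-5p was -0.76, -0.035 and -0.076 under those scalings, -0.035 with slide row as a block, and -0.16 to 0.47 over the fits that left out 1 array. miR-27a-3p was -0.30 and miR-181b-5p -0.15 with all probes. miR-451a was 0.0037 with normexp, 0.25 with slide row as a block, and -1.20 to 1.33 over the fits that left out 1 array. Dim probes near background, among them miR-183-5p, miR-450a-5p and miR-503-5p, have uncertain fold changes.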
